A study of Mus musculus with 2 samples.

Results

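The genes of sterol and fatty acid synthesis were lower in Dnmt1-/- than in Dnmt1+/+ mouse embryonic fibroblasts (MEFs) along most of the sterol pathway and among the desaturases. The set was a list of 34 genes, and its entries were those of the deposited table that carry one of these gene symbols. Of the 34 genes, 33 had an entry, and 31 entries passed the filters, of 11244 entries kept out of 29126 in all. Messenger RNA was sequenced with strand specificity, with 1 library made for each genotype. In Dnmt1-/- cells both copies of Dnmt1, the gene of the maintenance DNA methyltransferase, are hypomorphic alleles, that is, alleles of reduced function. Cells of both genotypes were also null for trp53, which encodes p53, and the labels give their strain as unknown. No treatment is named, the labels give the culture only as standard, and whether a line is 1 clone is not given, so the line, its culture and its genotype cannot be told apart. Fewer cells of a type and less RNA per cell cannot be told apart in such bulk samples either. Values are RPKM, the reads on a transcript scaled to its length and to the mapped reads of the library. Levels can thus be set beside each other between genes. Between libraries this scaling leaves in place any shift shared by most genes, which is given below. Changes are given as differences in log2(RPKM + 0.1), Dnmt1-/- minus Dnmt1+/+. This scale understates the change of low genes. Entries were kept with status OK (the label Cuffdiff gives to entries with enough reads), a gene symbol and at least 1 RPKM in one library or the other. As each genotype has 1 library, there is no replicate check on any difference and no test was possible, and more than 2-fold is used as a description of size. The table carries no read counts, so the depth behind a single value is unknown.

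Cells build cholesterol from acetyl-CoA through mevalonate, farnesyl diphosphate, squalene and lanosterol, and they build fatty acids from the same acetyl-CoA through malonyl-CoA and palmitate, which elongases lengthen and desaturases supply with double bonds. Both routes are switched on by sterol regulatory element binding proteins (SREBPs), membrane-bound transcription factors that Scap escorts from the endoplasmic reticulum to the Golgi for cleavage. When sterols are plentiful, Insig proteins hold Scap back, and the enzyme genes are transcribed less. In promoters of sterol genes the SREBPs act together with NF-Y, which binds the letters CCAAT.

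Dnmt1 was at 65.2 RPKM in Dnmt1+/+ and 14.5 in Dnmt1-/- MEFs. The median change of the 11244 genes kept was -0.14, and the middle 50% of them lay between -0.56 and 0.27, so changes are to be read against this shift. Markers of fibroblasts were found in both libraries, with all 8 markers examined kept and a summed level of 5999 RPKM in Dnmt1+/+ and 3714 in Dnmt1-/-. Col1a1, a chain of fibrillar collagen, was at 1448 and 898 RPKM, while Thy1, a surface marker of many fibroblasts, was at 4.84 and 0.129. Of the growth factor receptors on the list, Pdgfra was at 6.95 and 18.7 RPKM and Pdgfrb at 33.9 and 37.8. The fibroblast markers thus differed in direction, but 6 of the 8 had lower values in Dnmt1-/-, with a median change of -0.81. Past 2-fold, 3 were lower and 1 was higher, against 10.9% and 8.47% of all genes kept. Adipocytes make much of the lipid in the body, so their markers were examined as well. The 10 adipocyte markers summed to 3.91 RPKM in Dnmt1+/+ and 13.4 in Dnmt1-/-. Plin1, Cfd, Retn and Cidec were listed at 0 in both libraries and Adipoq was at 0.0119 and 0, whereas Fabp4 was at 0.459 and 6.74 and Pparg at 1.30 and 5.79. Cebpa, at 1.38 and 0.817 RPKM, and Lpl, at 0.726 and 0.0230, had lower values in Dnmt1-/-. Of 7 leukocyte markers, Ptprc, Emr1 and Tyrobp were listed at 0 in both libraries, and the sum was 2.18 and 13.0 RPKM. Csf1r was at 0.0702 and 6.08, Cd68 at 0.596 and 3.63, and Cd14 at 1.51 and 3.23. Epithelial markers summed to 0.363 RPKM in Dnmt1+/+ and 2.19 in Dnmt1-/-, with the joined entry of Krt14 and Krt17 at 0.0349 and 1.46. Sums for hepatocyte and endothelial markers stayed under 1 RPKM in either library. The part of these markers in the results was not tested.

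Promoters of 27 of the 34 genes were found in a RefSeq table (build GRCm38.p6), which gives 250 bases before to 50 bases after each gene start. The 5 shown here are, after their values were seen, the 3 largest falls and the 2 highest values among the genes with a single listed promoter that holds CCAAT on either strand. CCAAT, or ATTGG where it lies on the other strand, is in capitals, and each whole sequence matched 1 place in mm9.
Mvd, chr8:124967273-124967572 of mm9, minus strand: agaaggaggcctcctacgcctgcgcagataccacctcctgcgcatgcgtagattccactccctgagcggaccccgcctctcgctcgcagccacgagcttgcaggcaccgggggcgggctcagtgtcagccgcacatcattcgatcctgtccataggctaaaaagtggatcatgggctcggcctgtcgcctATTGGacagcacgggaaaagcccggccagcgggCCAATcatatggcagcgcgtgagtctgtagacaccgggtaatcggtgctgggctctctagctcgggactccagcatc
Idi1, chr13:8884602-8884901 of mm9, plus strand: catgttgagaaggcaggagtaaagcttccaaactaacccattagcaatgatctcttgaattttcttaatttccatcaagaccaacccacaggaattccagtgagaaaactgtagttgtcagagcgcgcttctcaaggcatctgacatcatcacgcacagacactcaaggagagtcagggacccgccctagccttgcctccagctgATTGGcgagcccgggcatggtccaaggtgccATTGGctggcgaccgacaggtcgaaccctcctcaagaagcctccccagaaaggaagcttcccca
Sc4mol (Msmo1 in RefSeq), chr8:67212326-67212625 of mm9, minus strand: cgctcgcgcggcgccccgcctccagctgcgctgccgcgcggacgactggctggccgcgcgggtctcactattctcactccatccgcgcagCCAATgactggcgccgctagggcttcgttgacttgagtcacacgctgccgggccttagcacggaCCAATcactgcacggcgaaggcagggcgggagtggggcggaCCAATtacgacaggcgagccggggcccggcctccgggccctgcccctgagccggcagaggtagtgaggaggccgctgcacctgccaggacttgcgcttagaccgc
Hsd17b7, chr1:171899287-171899586 of mm9, minus strand: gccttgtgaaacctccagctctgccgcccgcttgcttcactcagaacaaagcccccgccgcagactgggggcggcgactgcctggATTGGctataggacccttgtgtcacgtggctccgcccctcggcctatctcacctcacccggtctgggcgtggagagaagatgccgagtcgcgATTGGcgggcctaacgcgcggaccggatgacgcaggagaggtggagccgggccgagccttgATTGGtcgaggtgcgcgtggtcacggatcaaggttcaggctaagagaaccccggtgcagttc
Elovl5, chr9:77764922-77765221 of mm9, plus strand: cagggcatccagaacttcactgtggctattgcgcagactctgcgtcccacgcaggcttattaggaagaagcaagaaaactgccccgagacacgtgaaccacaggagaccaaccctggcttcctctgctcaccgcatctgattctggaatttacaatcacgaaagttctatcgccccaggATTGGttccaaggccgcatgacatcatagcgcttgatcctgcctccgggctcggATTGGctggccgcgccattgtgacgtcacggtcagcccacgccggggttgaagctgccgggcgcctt

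The letters CCAAT stood 2 times in the promoters of Mvd, Idi1 and Elovl5, and 3 times in those of Sc4mol and Hsd17b7. These promoters were chosen among those that hold CCAAT. Its presence in them, for genes that fell and genes that did not, was thus set by the choice. Of the 27 genes with a promoter in the table, 22 (81.5%) held CCAAT on one strand or the other in at least one promoter, against 44.0% of the 7979 genes kept that have a promoter there. Among genes that fell more than 2-fold 8 of 11 held it, and among those kept that did not, 11 of 13. The letters TCACNCCAC of a sterol regulatory element were found on either strand in 1.29% of the genes kept. They were in 1 of these 27 genes, Hmgcs1, where they began 137 bases before the start. None of the 11 genes that fell more than 2-fold and none of the 13 kept that did not held them. The 27 genes also include Hmgcs1, Tm7sf2 and Acacb, which are not among the genes kept. GGGCGG, the box of Sp1, was in 77.8% of the 27 genes and 71.2% of the genes kept. CACGTG, an E box, which reads the same on both strands, was in 22.2% and 12.3%. These counts are matches of letters in a short window, and several genes have more than one promoter in the table.

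The promoters were also compared for CpG content, as CpG is the site of the methylation that Dnmt1 maintains. The ratio of observed to expected CpG was 0.719 in the median over the 36 promoters of these genes and 0.767 over those of the genes kept. It was 0.724 over the 14 promoters of genes that fell more than 2-fold and 0.741 over the 19 promoters of those kept that did not. The promoter of Mvd had a ratio of 0.791, that of Idi1 0.445 and that of Elovl5 0.808. Ratios ran from 0.227 to 0.988 in promoters of genes that fell more than 2-fold. In promoters of those kept that did not, they ran from 0 to 1.09.

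Of the 31 entries kept, 16 (51.6%) were more than 2-fold lower in Dnmt1-/- MEFs, and none was more than 2-fold higher. Among all genes kept, the shares past 2-fold were 10.9% on the lower and 8.47% on the higher side. The median change of the 31 was -1.05, against -0.14 for all genes kept. A lower value in Dnmt1-/- was found for 27 of them, against 6701 of the 11244 genes kept, and 24 lay below the lower quartile of all genes. The genes with higher values were Elovl5, Scap, Hsd17b7 and Acly. Relative to the median of all genes, 12 were more than 2-fold lower, against 8.58% of all genes, and Acat2, Insig1, Dhcr7 and Sqle, at -0.99, -0.96, -0.92 and -0.91 on this scale, were then just inside 2-fold. Just inside it without this step were Cyp51 at -0.98, the joined entry of Fads1 and Fads3 at -0.96 and Stard4 at -0.94.

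These were well-expressed genes, with 29 of the 31 at 10 RPKM or more in Dnmt1+/+. In that library they lay between 6.45 and 392.1 RPKM, and in Dnmt1-/- between 4.38 and 92.3. Summed, they had 1941 RPKM in Dnmt1+/+ and 855 in Dnmt1-/-, which is 0.525% and 0.235% of the RPKM of all genes kept. Their median rank by level was at the 85.7 percentile of genes kept in Dnmt1+/+ and at the 70.6 percentile in Dnmt1-/-, and the rank was lower in Dnmt1-/- for 27 of the 31. The share of all genes past 2-fold differed with level, so the count was also taken at a mean of at least 10 RPKM. There 14 of 27 were more than 2-fold lower, against 5.04% of all genes at that level and 10.9% of all genes kept.

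**Figure D1:**
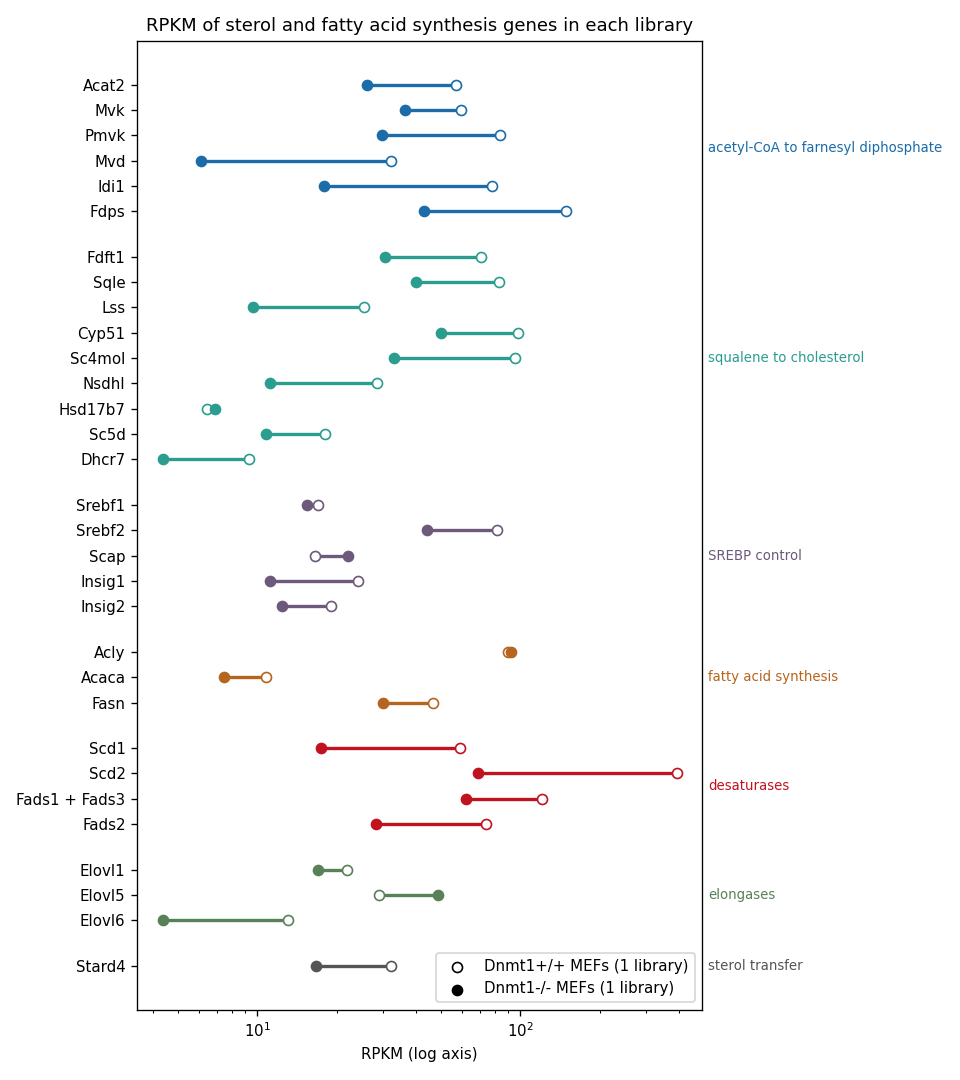
RPKM (log axis) of the 31 genes kept, ordered by role, with the Dnmt1+/+ library as open and the Dnmt1-/- library as filled points joined by a line. The filled point lies to the left for 27 genes, and to the right for Hsd17b7, Scap, Acly and Elovl5.

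The first segment of the sterol route leads from acetyl-CoA to farnesyl diphosphate. Of its 6 genes kept, 5 were more than 2-fold lower, against 10.9% of all genes kept. The median change of the 6 was -1.64. Mvd, which decarboxylates mevalonate diphosphate, had the largest change, from 32.1 RPKM in Dnmt1+/+ to 6.10 in Dnmt1-/-, a log2 change of -2.38. The gene occupies chr8:124957496-124967322 of mm9 (minus strand). Idi1, which isomerises its product, was at 78.0 and 17.9 RPKM, a change of -2.11. Fdps, which joins these units to farnesyl diphosphate, was the most abundant gene of the segment at 148.8 RPKM in Dnmt1+/+ and was at 42.8 in Dnmt1-/-, a change of -1.79. Successive enzymes at the end of the segment thus had the largest falls in it.

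The enzymes before them were lower by less. Pmvk, the second of the kinases that phosphorylate mevalonate, was at 83.4 RPKM in Dnmt1+/+ and 29.7 in Dnmt1-/-, a change of -1.49. Mvk, the first of them, was at 59.6 and 36.4 RPKM, a change of -0.71, and did not pass 2-fold. Acat2, which joins acetyl-CoA units in the cytosol, was at 57.0 and 26.0 RPKM, a change of -1.13. Its entry shares a locus with its paralog Acat3, at 23.9 and 9.82 RPKM, and with Tcp1, a chaperonin gene, at 359.2 and 374.7, so the 2 paralogs were both lower while the gene beside them was not. Reads can be shared between Acat2 and Acat3, and their values are uncertain. Hmgcs1, a synthase before mevalonate, had 2 entries on unplaced sequence of chromosome 13, both listed at 0 in both libraries with the status NOTEST, and its level is not analysed here.

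From squalene to cholesterol, 6 of 9 genes kept were more than 2-fold lower, against 10.9% of all genes kept. The median change of the 9 was -1.06. Fdft1, which makes squalene and so commits farnesyl diphosphate to sterols, was at 70.7 RPKM in Dnmt1+/+ and 30.6 in Dnmt1-/-, a change of -1.20. Sqle, which oxidises squalene, was at 83.3 and 40.1 RPKM, a change of -1.05. Lss, which closes the rings to lanosterol, was at 25.3 and 9.60 RPKM, a change of -1.39. The 3 steps that lead from farnesyl diphosphate to the first sterol were thus all past 2-fold, and Fdft1 and Lss also passed it after the median change was subtracted.

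The later enzymes remove methyl groups and reduce or shift double bonds. Sc4mol, a methyl sterol oxidase, was at 95.2 RPKM in Dnmt1+/+ MEFs and 33.1 in Dnmt1-/- MEFs. Its change of -1.52 was the largest of this segment. Cyp51, which demethylates lanosterol, was the most abundant here, at 98.2 and 49.8 RPKM, and stayed just inside 2-fold. Nsdhl, a sterol dehydrogenase of the same demethylation steps, was at 28.5 and 11.2 RPKM, a change of -1.34. It is the only X-linked gene of the set, and Xist, the RNA that coats an inactive X chromosome, was at 0.00648 RPKM in Dnmt1+/+ and 37.0 in Dnmt1-/-. The median change of the X-linked genes kept was -0.39, and a share of 24.9% was past 2-fold on the lower side. The part of the X chromosome in this value was not tested.

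Dhcr7, a reductase of the last steps, was low in both libraries, at 9.26 and 4.40 RPKM, a change of -1.06. Sc5d, a sterol desaturase, was at 18.1 and 10.8 RPKM, a change of -0.74. Hsd17b7, the ketosteroid reductase of the demethylation steps, stood apart at 6.45 and 6.92 RPKM, a change of 0.10. It was also the least abundant of the 31 genes in Dnmt1+/+. No entry carried the symbol Tm7sf2, a sterol reductase, and it is not analysed here.

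Among the genes that control the SREBPs, 1 of 5 was more than 2-fold lower, against 10.9% of all genes kept. A count this small does not set the group apart. The median change of the 5 was -0.61. Srebf2, which encodes the factor mainly tied to sterol genes, was at 81.5 RPKM in Dnmt1+/+ and 44.3 in Dnmt1-/-, a change of -0.88. Srebf1, whose products are mainly tied to fatty acid genes, was at 17.0 and 15.5 RPKM, a change of -0.13, which became 0.01 relative to the median of all genes. Srebf1 made up 17.2% of the summed RPKM of this pair in Dnmt1+/+ and 25.9% in Dnmt1-/-. The entry of Srebf2 also spans the microRNA gene Mir33, which was listed at 0 in both libraries.

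Insig1, itself a target of the SREBPs, was at 24.1 RPKM in Dnmt1+/+ and 11.2 in Dnmt1-/-, a change of -1.10. Insig2, which retains Scap in the same way, was at 19.0 and 12.5 RPKM, a change of -0.61. Of the summed RPKM of this pair, Insig1 made up 55.9% in Dnmt1+/+ and 47.3% in Dnmt1-/-, so the more abundant gene of the pair was a different one in each library. Scap, the escort protein, was at 16.6 and 22.1 RPKM, a change of 0.41. Stard4, which carries sterols between membranes, was at 32.2 and 16.7 RPKM, a change of -0.94.

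Fatty acid synthesis proper changed less. Acly, which supplies cytosolic acetyl-CoA to both routes, was at 89.9 RPKM in Dnmt1+/+ and 92.3 in Dnmt1-/-, a change of 0.04. Fasn, the synthase that makes palmitate, was at 46.6 and 30.1 RPKM, a change of -0.63. Acaca, the carboxylase that makes malonyl-CoA in the cytosol, was at 10.8 and 7.49 RPKM, a change of -0.52. None of the 3 genes kept passed 2-fold, which 10.9% of all genes kept did on the lower and 8.47% on the higher side. Acacb, the carboxylase of the mitochondrial surface, was at 0.303 and 0.0382 RPKM and did not reach the minimum of 1. It made up little of the pair in either library, since Acaca held 97.3% of their sum in Dnmt1+/+ and 99.5% in Dnmt1-/-.

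The desaturases held the largest change of the set. Scd2, which puts the first double bond into saturated fatty acids, was the most abundant of all 31 genes in Dnmt1+/+, at 392.1 RPKM, and was at 69.3 in Dnmt1-/-, a change of -2.50. The gene occupies chr19:44368166-44381354 of mm9 (plus strand). Its paralog Scd1 was at 58.9 and 17.5 RPKM, a change of -1.75. Scd2 made up 86.9% of the RPKM of these 2 genes in Dnmt1+/+ and 79.8% in Dnmt1-/-, and so remained the main form. The other genes of this cluster were lower as well, Scd3 from 10.8 to 2.32 RPKM and Scd4 from 2.20 to 0.362. The 4 paralogs lie next to each other and their transcripts are alike, so shared reads make the split between them uncertain.

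Fads2 and Fads1 place double bonds in polyunsaturated fatty acids. Fads2 was at 73.8 RPKM in Dnmt1+/+ and 28.3 in Dnmt1-/-, a change of -1.38. The joined entry of Fads1 and Fads3 was at 120.5 and 62.1 RPKM, and the values of the 2 genes cannot be told apart. An entry without a symbol at the same locus was at 114.0 and 103.5 RPKM. All 4 desaturase entries were thus lower, 3 of them by more than 2-fold, against 10.9% of all genes kept. The median change of the 4 was -1.56.

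The elongases differed among themselves in direction. Elovl6, which lengthens palmitate, was at 13.1 RPKM in Dnmt1+/+ and 4.38 in Dnmt1-/-, a change of -1.56. Elovl5, which lengthens polyunsaturated fatty acids, was at 29.1 and 48.5 RPKM, a change of 0.74 and the highest of the set. Elovl1, which acts on very long saturated chains, was at 21.9 and 17.0 RPKM, a change of -0.37. Summed, the 3 elongases came to 64.2 RPKM in Dnmt1+/+ MEFs and to 69.8 in Dnmt1-/- MEFs, so their total was not lower while that of the desaturases went from 645.3 to 177.1.

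**Figure D2:**
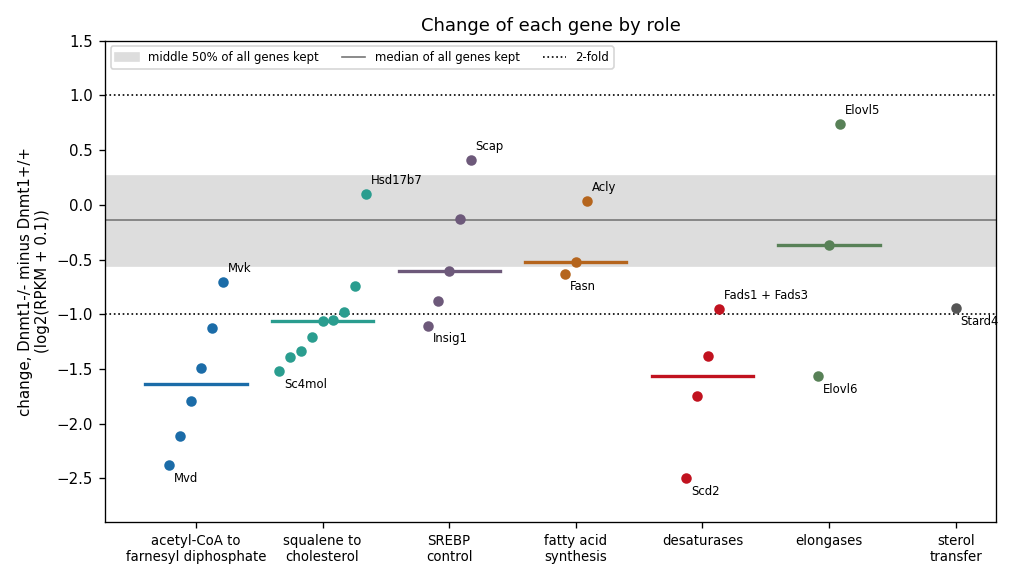
Change of each gene kept (log2(RPKM + 0.1), Dnmt1-/- minus Dnmt1+/+) by role, with the median of each group as a coloured line, the median and middle 50% of all 11244 genes kept in grey and 2-fold as dotted lines. The points of the first sterol segment and the desaturases reach -2.38 and -2.50, while fatty acid synthesis lies between -0.63 and 0.04.

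Other enzymes of these pathways, with roles on both routes, were examined beside the set. Of 27 such genes listed, 22 entries were kept that hold no gene of the set. Of the 22, 9 (40.9%) fell more than 2-fold and none rose as much, against 10.9% and 8.47% of all genes kept. The median change of the 22 was -0.67, against -0.14 for all genes kept. Ggps1, which makes geranylgeranyl diphosphate from farnesyl diphosphate, was at 6.84 RPKM in Dnmt1+/+ and 2.85 in Dnmt1-/-, a change of -1.23. Of the acyl-CoA synthetases, which activate fatty acids, Acsl1 was at 12.1 and 3.97 RPKM, Acsl4 at 22.1 and 7.52, and the joined entry of Acsl3 and Utp14b at 47.5 and 16.4. Acsl4 is X-linked, and 24.9% of the X-linked genes kept were more than 2-fold lower. Acsl5 was at 38.9 and 41.2 RPKM, and Acsl6, which did not reach the minimum of 1, at 0.264 and 0.878. These 2 genes were named after their values were seen, and the synthetases differed among themselves in direction.

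The machinery that cleaves and degrades the SREBPs and Insigs was examined in the same way. Of 13 entries kept for other genes of SREBP processing and sterol sensing, 1 was more than 2-fold lower, none was more than 2-fold higher, and the median change was -0.12, against shares of 10.9% and 8.47% and a median of -0.14 for all genes kept. The list thus stood near the background. The one was Mbtps2, the second protease of SREBP cleavage, at 7.34 RPKM in Dnmt1+/+ and 3.26 in Dnmt1-/-. Mbtps2 is X-linked, and 24.9% of the X-linked genes kept were more than 2-fold lower. The part of the X chromosome in its value was not tested. Mbtps1, the first protease, was at 110.0 and 88.4 RPKM.

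Genes of sterol uptake, trafficking, oxidation and efflux had a median change of -0.02 over 15 entries kept, against -1.05 for the synthesis genes of the set. Past 2-fold, 3 of the 15 had lower values and 1 a higher value in Dnmt1-/-, against 10.9% and 8.47% of all genes kept, and counts this small do not set the list apart. Vldlr, a lipoprotein receptor, was at 13.0 RPKM in Dnmt1+/+ and 1.497 in Dnmt1-/-, a change of -3.04. Abca1, which exports cholesterol, was at 1.87 and 0.406 RPKM, and Stard5, a sterol transfer protein, at 3.08 and 0.532. Cyp7b1, an oxysterol hydroxylase, was at 0.0502 and 1.62 RPKM. Genes past 2-fold in this list were thus mostly low in both libraries, apart from Vldlr in Dnmt1+/+.

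**Figure D3:**
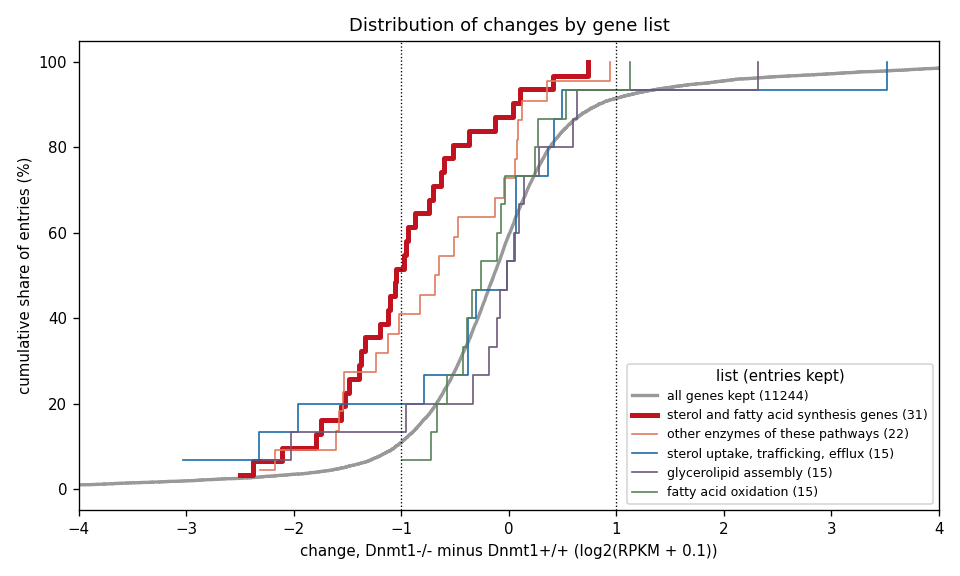
Cumulative share of entries (%) by change (log2(RPKM + 0.1), Dnmt1-/- minus Dnmt1+/+) for the 31 genes of the set, for other lists and for all 11244 genes kept; the axis is limited, and all genes reach from -10.5 to 10.5. The curve of the set starts at -2.50 and from there lies left of that of all genes, with 51.6% of it below the dotted 2-fold line at -1.

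The genes of the set are spread over the genome, and neighbouring genes were compared to see whether the lower values extended along the chromosome. The 31 genes lie on 16 chromosomes, and the 16 that fell more than 2-fold lie on 11. For each, the nearest kept gene on either side was taken from the NCBIM37 annotation, leaving out other genes of the pathway lists, which gave 58 neighbours at a median distance of 81.6 kb between midpoints. The median change of the neighbours was -0.09, and 5 of 58 (8.62%) were more than 2-fold lower, near the 10.9% of all genes. The change was lower than that of both neighbours for 22 of the 31 genes. No such share was counted for all genes kept, and a set with mostly lower values raises this count by itself. Of the 16 that fell more than 2-fold, 1 had a neighbour of this kind that did so, Acat2 with its paralog Acat3. This count depends on the genes left out. Scd3 and Scd4, which lie in the cluster of Scd1 and Scd2, were left out and had changes of -2.18 and -2.32.

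With Scd3, Scd4 and other genes of the pathway lists left out, Scd1 and Scd2 lie between Bloc1s2 and Hif1an, at 157 to 269 kb between midpoints. Bloc1s2 was at 7.48 RPKM in the Dnmt1+/+ library against 7.90 in Dnmt1-/-, and Hif1an at 11.1 and 11.5. Mvd lies between Cyba, at 12.9 and 11.7 RPKM, and Rnf166, at 14.2 and 13.1. These flanking genes had nearly the same values in both libraries. Fdft1 shares a locus with Ctsb, a lysosomal protease gene, which was at 66.8 and 195.9 RPKM and thus moved the other way. Both neighbours had lower values in Dnmt1-/- for 11 of the 31 genes. Lower values were common, at 34 of the 58 neighbours and 6701 of the 11244 genes kept. Mvk was the one gene with both neighbours past 2-fold, Mmab from 8.40 to 3.45 RPKM and Trpv4 from 1.20 to 0.199. These genes were named after their values were seen.

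**Figure D4:**
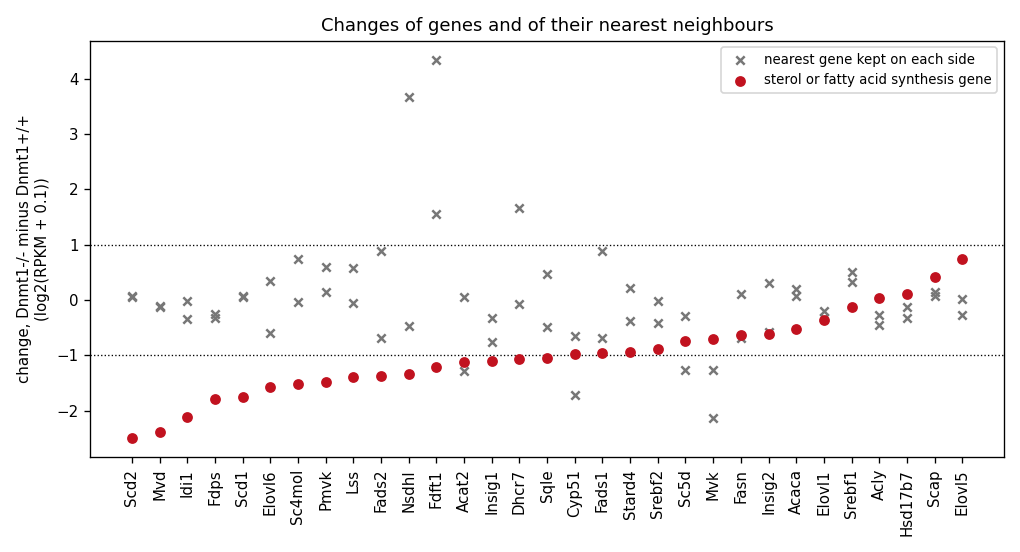
Change (log2(RPKM + 0.1), Dnmt1-/- minus Dnmt1+/+) of each of the 31 genes kept (red points) and of the nearest gene kept on each side of it (grey crosses), ordered by the change of the gene, with 2-fold as dotted lines. From Scd2 at -2.50 to Fdft1 at -1.20 the red point lies below both crosses, and the crosses are mostly inside 2-fold.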

How the data were processed

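The authors deposited RPKM values in a table with 1 column for each library. The submitters' processing notes name TopHat, Cufflinks and Cuffdiff and the build mm9. Versions, any scaling beyond mapped reads and the use of strand in assigning reads are not given in the sources used here, so overlapping genes are uncertain. No fold changes or p-values of the authors were used. The wild-type column was taken as Dnmt1+/+ and the knock-out column as Dnmt1-/-. The filter asked for status OK, any gene symbol and at least 1 RPKM in one library or the other. Changes are differences of log2(RPKM + 0.1). The RPKM values hold no counts, so depth per gene, intervals and detection limits are unknown, and with 1 library per genotype no test was made. The counts and medians were checked on shuffled changes of these data shifted by known amounts, which checks their arithmetic only. All genes of the set were named, and some genes of other lists are not reported here. Of other lists, up to 6 genes past 2-fold or of high RPKM were named, and exceptions are marked. The members and lists were chosen with earlier results of these data known. Promoter letters were counted in RefSeq sequences of GRCm38.p6, and gene positions are 1-based, from the NCBIM37 (mm9) annotation. The alternatives, of which 9 were set with the design, changed the pseudocount (1, 0.01 or none), the filter, the scaling, joined entries or the threshold. Another 2, a mean of at least 10 RPKM and loci with a single symbol, were chosen after seeing the data. Python 3.11.15, numpy 2.4.6, pandas 2.3.3 and matplotlib 3.10.9 were used.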

Additional observations from a re-analysis of the deposited data

How the results depend on the processing

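The median change of the 31 genes lay between -1.06 and -0.91, and the number more than 2-fold lower between 12 and 24, over 9 settings listed with the design and 2 added after seeing the data. It was 24 where 1.5-fold was used in place of 2-fold, against 23.7% of all genes, and this was the one setting in which a gene, Elovl5, counted as higher (1, against 14.1% of all genes). The number lower was 12 after the median change was subtracted, against 8.58% of all genes, and 15 with a pseudocount of 1, against 7.12%. Without a filter on low RPKM, where Acacb was added, it was 17, against 11.1% of all genes. Where loci with another gene symbol were left out, it was 13 of 24, against 11.3%. The medians of all 6 role groups stayed below 0, from -1.75 to -1.42 for the desaturases and from -0.37 to -0.23 for the elongases. With 1 added to each RPKM, the share of Acaca in its pair was 90.0% in Dnmt1+/+ and 89.1% in Dnmt1-/-, so the order of the libraries turned, as Acacb was near 0. No paired analysis was possible because there is 1 library per genotype. For the same reason no library could be left out. Culture state, cell line and genotype cannot be told apart.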

Other observations

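Genes that break down fatty acids or build them into glycerolipids were examined beside the genes that make them. Of 15 entries kept for fatty acid oxidation, none fell and 1 rose more than 2-fold, and the median change was -0.26. Among all genes kept, 10.9% fell and 8.47% rose by as much, so with 15 entries the list is near the background. That gene was Cpt1a, which admits fatty acids to mitochondria, at 8.34 RPKM in Dnmt1+/+ and 18.3 in Dnmt1-/-.

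Glycerolipid assembly had a median change of -0.02 over 15 entries kept, of which 2 fell and 1 rose more than 2-fold, near the 10.9% and 8.47% of all genes kept. Both directions occurred among the lipins, phosphatases that make diacylglycerol, as Lpin1 was at 2.65 RPKM in Dnmt1+/+ but 0.459 in Dnmt1-/- and Lpin3 at 0.328 and 2.04. Dgat2, an enzyme of the last step of triglyceride synthesis, was at 2.10 and 0.440 RPKM. All 3 were low in both libraries.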
